A study of Mus musculus with 8 samples.

Results

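Keratin-associated proteins are small proteins of the hair shaft that fill the space between keratin intermediate filaments and cross-link them. They are named by subfamily number, and fall by composition into a high glycine-tyrosine class and a cysteine-rich class, the second holding the high-sulphur and ultrahigh-sulphur proteins. Their genes lie in clusters and most are switched on late, in cells of the shaft cortex or cuticle that have left the hair matrix and already make hair keratins. Every array probe whose RefSeq accession leads to a mouse symbol of Krtap followed by a digit was taken, and a gene was read from its probe with the highest mean over the 8 arrays. This gave 63 probes of 55681 and 51 Krtap genes of 37018 genes on the array, in 24 subfamilies. The 28172 probes without a RefSeq symbol were kept under the array's own identifiers. Counts and shares over all genes on the array therefore include identifiers that are not named genes. Of these, 16 genes belong to the high glycine-tyrosine subfamilies Krtap6, 7, 8, 16, 19, 20, 21 and 22, and 35 to the cysteine-rich rest. The genes Krtap4-13, Krtap6-3, Krtap27-1, Krtap28-13 and Krtap29-1, listed by RefSeq, had no probe.

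The arrays measured total RNA of whisker follicles from female ApcMin/+ mice, which carry 1 truncating allele of Apc, a scaffold protein needed for the destruction of beta-catenin. E7386 is a small molecule reported to interfere with the pairing of beta-catenin and its coactivator CBP. It was given orally from an age of 8 weeks at 30 mg/kg, 2 doses per day, in 4 cycles of 5 days on drug and 2 days off drug. The other group received vehicle. E7386 follicles were taken 6 h after the last dose; the labels of the vehicle samples give no age or time. Each group had 4 arrays of Cy3-labelled RNA. Both groups carried the Apc allele, and no group without it was analysed here. Whether each array stands for a different mouse is not in the labels, so a p-value here weighs only the spread among these arrays, which may be technical.

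Values are log2 of the scanner's processed signal minus the 75th percentile of the same array, called the normalised log2 signal, so a value of 0 is as bright as that percentile. That percentile lay between 397 and 569 intensity units, and 61.5% to 64.7% of mouse spots were well above background. None of the 576 Krtap spots over the 8 arrays was saturated. Vehicle arrays filled one row of the slide and E7386 arrays the other, so row and treatment cannot be told apart. Of 25353 genes tested with limma, 284 passed a Benjamini-Hochberg adjusted p of 0.05, which is 1.12% (0.753% higher and 0.367% lower with E7386). In a whole follicle, fewer shaft cells and less shaft RNA per cell cannot be told apart.

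Of the 51 Krtap genes, 50 were well above background on at least 3 of 4 arrays of a group and were tested. The exception was Krtap13, whose spots stayed short of that mark on every array. A run here means all Krtap genes of the same chromosome in RefSeq GRCm38.p6 order, also where other genes lie between them. Gene order below counts Krtap genes only. The run of 24 from Krtap24-1 to Krtap11-1 has 41 other genes between its ends. It holds 15 of the 16 measured high glycine-tyrosine genes. Krtap16-1 is the other, and lies among cysteine-rich genes in a second run of 23 from Krtap3-3 to Krtap17-1, with 20 other genes between its ends. It was counted as high glycine-tyrosine by its subfamily number.

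Promoter sequence, 250 bases before the start of transcription as RefSeq gives it for GRCm38.p6, was available for 46 of the 51 genes. TATAAA, the core of the TATA box, stood on the gene's strand in 37 of the 46, or 80.4%, against 8.12% of 27025 promoters of all genes. It was held by 11 of 15 high glycine-tyrosine promoters and 26 of 31 cysteine-rich ones, with the first base of the copy nearest the start a median of 31 bases (27 to 92) before it. Only these exact letters were searched, so a promoter without them may still hold another form of the TATA box. CTTTGAA, a form of the motif bound by the TCF and LEF partners of beta-catenin, was searched on both strands and found in 7 of 46 promoters, or 15.2%, against 4.64% of all. Its variant CTTTGAT was in 3 of 46, or 6.52%, against 3.23%. CTTTGAA and its variant differ in the last base, so no site on a strand counts for both, and a match describes letters only. The promoters of all genes were not matched for base composition, and Krtap promoters belong to related genes, so these shares are no test. CTTTGAA was in 2 of 15 high glycine-tyrosine and 5 of 31 cysteine-rich promoters.

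The promoters of 6 genes are shown, each chosen for the reason given next. Krtap6-2 and Krtap19-1 had the smallest p of their subfamilies, Krtap8-1 is a bright high glycine-tyrosine gene of small spread, Krtap11-1 and Krtap5-5 are the brightest cysteine-rich genes inside and outside the high glycine-tyrosine run, and Krtap19-3 was added after the search since it holds CTTTGAA on both strands. Each is written 5′ to 3′ on the gene's strand, with coordinates on GRCm38.p6, and capitals mark TATAAA and, on either strand, the motif CTTTGAA.
Krtap6-2, chr16:89420112-89420361, minus strand: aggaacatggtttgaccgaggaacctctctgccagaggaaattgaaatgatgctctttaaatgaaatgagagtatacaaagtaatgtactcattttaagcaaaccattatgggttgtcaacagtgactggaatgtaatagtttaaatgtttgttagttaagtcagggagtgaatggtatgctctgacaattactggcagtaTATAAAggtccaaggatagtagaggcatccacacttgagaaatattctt
Krtap19-1, chr16:88869411-88869660, minus strand: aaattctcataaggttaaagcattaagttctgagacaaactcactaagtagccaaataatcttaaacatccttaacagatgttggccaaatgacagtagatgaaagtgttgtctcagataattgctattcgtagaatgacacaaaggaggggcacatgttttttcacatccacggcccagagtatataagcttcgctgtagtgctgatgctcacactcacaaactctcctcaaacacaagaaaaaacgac
Krtap19-3, chr16:88878039-88878288, minus strand: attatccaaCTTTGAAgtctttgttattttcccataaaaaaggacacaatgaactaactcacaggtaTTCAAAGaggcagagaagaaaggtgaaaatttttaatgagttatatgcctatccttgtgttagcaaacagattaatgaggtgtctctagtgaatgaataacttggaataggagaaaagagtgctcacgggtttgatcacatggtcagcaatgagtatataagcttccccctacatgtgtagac
Krtap8-1, chr16:89487953-89488202, minus strand: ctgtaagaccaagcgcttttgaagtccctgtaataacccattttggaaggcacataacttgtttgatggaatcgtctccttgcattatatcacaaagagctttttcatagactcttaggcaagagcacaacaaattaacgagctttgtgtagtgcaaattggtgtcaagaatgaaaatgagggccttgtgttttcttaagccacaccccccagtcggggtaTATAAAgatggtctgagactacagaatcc
Krtap11-1, chr16:89571184-89571433, minus strand: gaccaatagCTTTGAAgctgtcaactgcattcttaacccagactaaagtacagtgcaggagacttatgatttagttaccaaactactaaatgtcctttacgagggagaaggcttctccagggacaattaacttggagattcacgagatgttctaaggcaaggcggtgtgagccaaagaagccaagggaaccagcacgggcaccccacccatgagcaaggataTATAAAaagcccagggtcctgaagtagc
Krtap5-5, chr7:142229972-142230221, minus strand: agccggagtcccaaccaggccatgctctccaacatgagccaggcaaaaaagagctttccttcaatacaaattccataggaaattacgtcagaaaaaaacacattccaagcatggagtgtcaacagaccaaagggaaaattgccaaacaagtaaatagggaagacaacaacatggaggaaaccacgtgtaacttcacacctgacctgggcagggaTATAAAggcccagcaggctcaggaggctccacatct
TATAAA stood in the Krtap6-2, Krtap8-1, Krtap11-1 and Krtap5-5 windows, and CTTTGAA in those of Krtap19-3 and Krtap11-1.

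No Krtap gene passed the threshold for E7386 against vehicle, 0 of 50 beside 1.12% of all genes tested. At an unadjusted limma p under 0.05 there were 2 of 50, Krtap6-2 and Krtap6-5, beside 15.2% of all genes. In none of the 50 tested Krtap genes did all arrays of one group lie above all arrays of the other, beside 4.82% of all genes with every E7386 array higher and 5.7% with every one lower. The mean was nevertheless higher with E7386 in 46 of 50 (52.0% of all genes), the median log2 change was 0.57 against 0.0088 over all genes, and it was above 1 in 11 of 50 (0.939% of all genes). The members share arrays and move together, so these counts are no test.

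Both classes had higher E7386 means, with the larger values in the high glycine-tyrosine class. In that class 15 of 16 genes were higher, with a median log2 change of 1.28 and a range of -0.09 to 4.17, or to 3.29 without Krtap19-1. Among 34 cysteine-rich genes 31 were higher, with a median of 0.45 and a range of -0.10 to 1.28. A log2 change above 1 was seen in 9 of 16 and 2 of 34. These differences came with a wide spread among vehicle arrays. The median SD of a gene over the 4 vehicle arrays was 1.30 for high glycine-tyrosine and 0.88 for cysteine-rich genes against 0.18 for all genes, while over the 4 E7386 arrays it was 0.58, 0.40 and 0.16. The vehicle SD was the larger of both groups' in 49 of 50 Krtap genes, beside 57.0% of all genes.

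**Figure D1:**
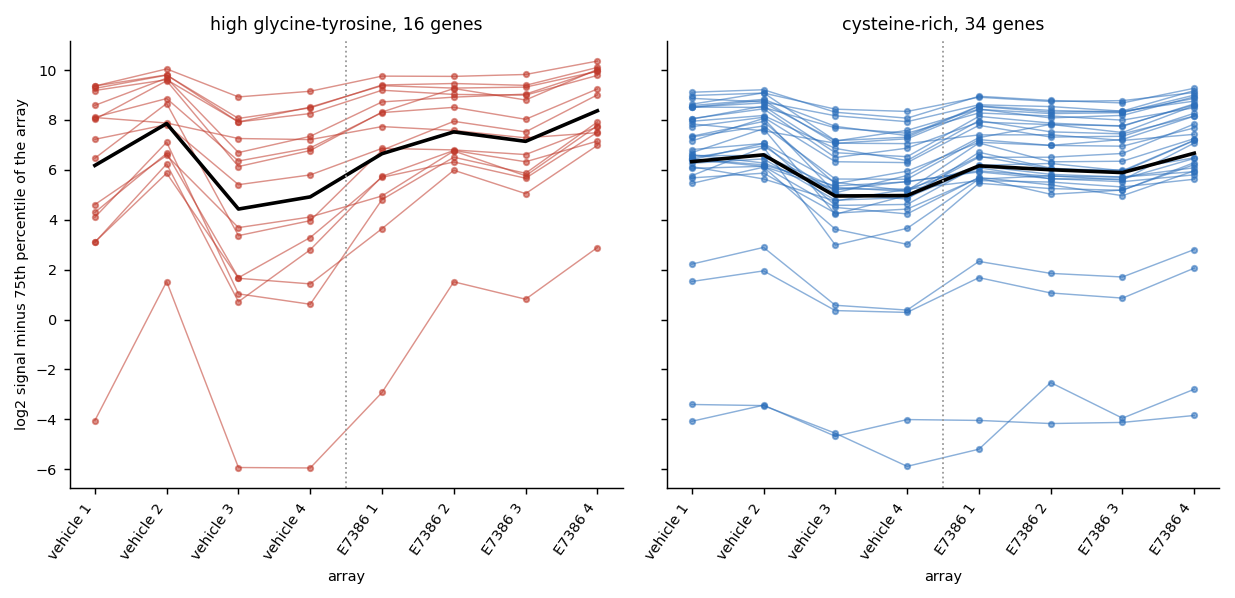
Normalised log2 signal (y axis) of each tested Krtap gene on the 8 arrays (x axis), with 1 thin line per gene, the class mean in black and a dotted line between the vehicle and E7386 arrays. The drop on vehicle 3 and vehicle 4 runs through both classes and is deepest in the high glycine-tyrosine panel, where the class mean is 4.43 and 4.92 on those arrays. Without Krtap19-1, which was not well above background on those arrays, it is 5.12 and 5.64.

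The spread had the same shape in nearly all members. Vehicle 3 and vehicle 4 were the 2 lowest of the 8 arrays in all 16 high glycine-tyrosine genes and in 31 of 34 cysteine-rich genes, beside 12.3% of all genes. E7386 4 was the highest array in 14 of 16 and 20 of 34. Vehicle 2 lay above the lowest E7386 array in all 50, whereas vehicle 1 did so in 33 of 34 cysteine-rich genes and in 5 of 16 high glycine-tyrosine genes. Vehicle 1 was therefore near the E7386 arrays for the cysteine-rich class and mostly below them for the other. The counts for E7386 4, vehicle 1 and vehicle 2 were not made over all genes, so they only describe these members.

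The class means show this array by array. The mean normalised log2 signal of the 16 high glycine-tyrosine genes was 6.18, 7.86, 4.43 and 4.92 on vehicle 1 to 4 and 6.65, 7.52, 7.14 and 8.37 on E7386 1 to 4. That of the 34 cysteine-rich genes was 6.33, 6.60, 4.95 and 4.97 with vehicle and 6.16, 6.01, 5.89 and 6.67 with E7386. Vehicle 2 was above E7386 1, 2 and 3 in both, so the groups overlapped. The difference of the 2 class means on the same array, which a shift of the whole array cannot move, was -0.15, 1.25, -0.52 and -0.05 with vehicle and 0.49, 1.52, 1.25 and 1.70 with E7386. Its change of 1.11 compares 0.13 ± 0.77 with 1.24 ± 0.53 (SD, n = 4 each), and vehicle 2 lay between the E7386 values. The high glycine-tyrosine means and this difference include Krtap19-1, well above background on 2 of 4 vehicle and 4 of 4 E7386 arrays. Without that gene the class mean was 6.86, 8.28, 5.12 and 5.64 on vehicle 1 to 4. On E7386 1 to 4 it was 7.29, 7.92, 7.57 and 8.73, and the mean log2 change was 1.40 in place of 1.58.

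Without vehicle 3 and vehicle 4, an alternative added after seeing the data and given as a description, the median log2 change of the high glycine-tyrosine genes was 0.24 with 12 of 16 higher. That of the cysteine-rich genes was -0.28 with 33 of 34 lower, so its direction rested on those 2 arrays. The difference of the 2 mean changes was then 0.69. High glycine-tyrosine subfamilies differed, with mean changes of 0.90 for Krtap6 (3 of 3 genes higher) and 0.74 for Krtap19 (6 of 6 higher). Krtap20 was at 0.22, Krtap21 at 0.03, Krtap22 at -0.10, Krtap8 at -0.15 and Krtap7 at -0.52. The 2 Krtap16 genes were at -0.47 and 0.30. Vehicle 3 and vehicle 4 were the lowest arrays in nearly all members, so leaving them out had to lower the changes of those genes.

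Hair shaft keratins, the filament proteins that the keratin-associated proteins surround, followed the mean of the cysteine-rich class. The mean over 14 type I and type II hair keratins was 6.25, 6.48, 4.95 and 5.24 on vehicle 1 to 4 and 6.12, 6.16, 6.17 and 6.79 on E7386 1 to 4. Subtracting it on each array left the cysteine-rich mean within a range of 0.39 over all 8 arrays, with 13 genes higher and 21 lower and a median change of -0.13. That direction rested on Krt84, which had a log2 change of 3.34. With the other 13 keratins as the reference, whose mean changed by 0.37 in place of 0.58, 21 cysteine-rich genes were higher and 13 lower, with a median of 0.08 and a range over arrays of 0.42. The high glycine-tyrosine mean kept a range of 2.10, at -0.07, 1.37, -0.52 and -0.32 with vehicle and 0.53, 1.36, 0.98 and 1.58 with E7386. Relative to hair keratins 11 of its genes were higher and 5 lower, with a median change of 0.70, and without Krt84 15 were higher and 1 lower, with a median of 0.91. Vehicle 2 stood with E7386 2 and 4 by this measure and vehicle 1 with vehicle 3 and 4. With all 14 keratins as the reference, subfamilies differed within both classes. Among high glycine-tyrosine subfamilies, Krtap19 spanned 3.95 and Krtap6 2.93, and the others spanned 0.30 (Krtap8) to 1.05 (Krtap21). The Krtap19 value and the high glycine-tyrosine class mean include Krtap19-1, which was near background on some arrays. Cysteine-rich subfamilies spanned 0.43 (Krtap11) to 2.39 (Krtap15). The ranges of the class means therefore do not hold for each subfamily.

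**Figure D2:**
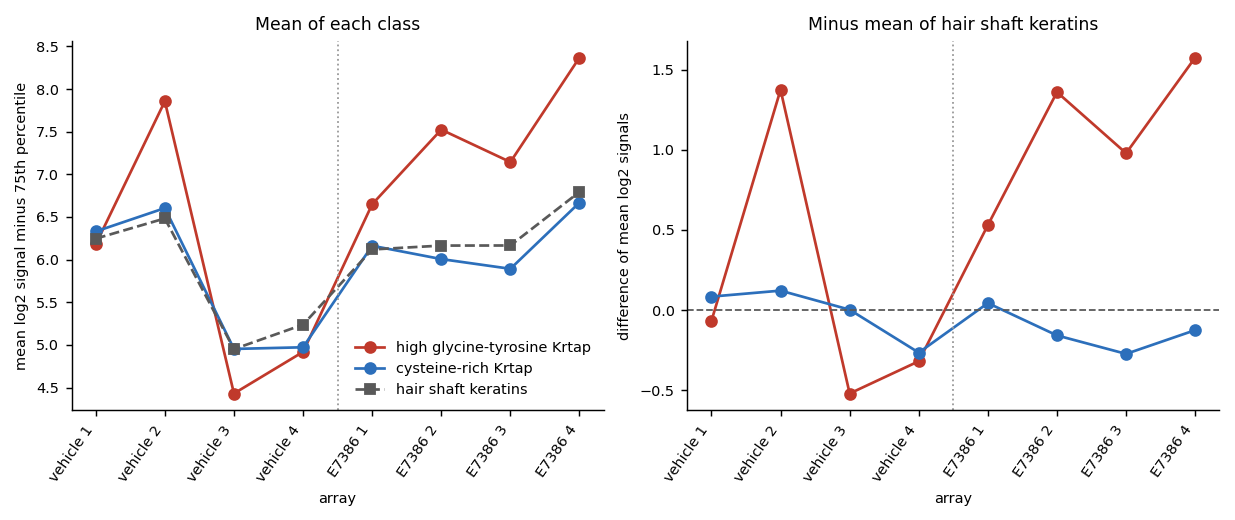
Left, mean normalised log2 signal (y axis) of the 16 high glycine-tyrosine, 34 cysteine-rich and 14 hair shaft keratin genes on the 8 arrays (x axis). Right, the 2 Krtap class means minus the hair keratin mean of the same array, where the cysteine-rich line stays within 0.39 and the high glycine-tyrosine line spans 2.10.

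Krtap6 genes encode high glycine-tyrosine proteins, and 3 were measured. Krtap6-2 had normalised log2 signals of 3.10, 6.24, 0.72 and 2.80 on vehicle 1 to 4 and 5.74, 6.78, 6.33 and 7.15 on E7386 1 to 4. All E7386 arrays were above vehicle 1, 3 and 4, and E7386 1 was below vehicle 2. The log2 change was 3.29 (SE 1.02, limma adjusted p = 0.188). Without vehicle 2 it was 4.29 with an adjusted p of 0.0477, the single Krtap call among the alternatives tried.

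Krtap6-5 had 4.30, 6.66, 1.68 and 3.29 with vehicle and 5.70, 6.32, 5.67 and 7.51 with E7386, again with vehicle 2 among the E7386 arrays. Its log2 change was 2.32 (SE 0.97, limma adjusted p = 0.312). This probe is printed as 10 spots on each array, and the SD over the spots was 0.040 to 0.103, against a range of 5.83 between arrays. The third member, Krtap6-1, had a brighter probe and a narrower span, with 9.27, 9.80, 8.06 and 8.48 on the vehicle arrays and 9.40, 9.46, 9.39 and 10.11 on the E7386 arrays. Its log2 change was 0.69 (SE 0.37, limma adjusted p = 0.427).

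A second, dimmer probe assigned to Krtap6-1 gave 3.12, 6.80, 0.76 and 2.81 with vehicle and 5.40, 6.90, 6.09 and 7.50 with E7386. These values lay within 0.56 of those of the Krtap6-2 probe on every array and spanned 6.74, whereas the brighter Krtap6-1 probe spanned 2.04. The genes are close paralogues, so which transcripts each probe reads is uncertain here.

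Krtap19, the largest high glycine-tyrosine subfamily on the array, had a mean change of 2.42 over 6 genes, and of 2.06 over the 5 genes other than Krtap19-1, which was near background on some arrays. The Krtap6 mean was 2.10. All 6 Krtap19 genes had log2 changes above 1, with limma adjusted p-values between 0.341 and 0.456. Krtap19-1 was at -4.05, 1.52, -5.93 and -5.95 with vehicle and at -2.92, 1.51, 0.82 and 2.89 with E7386. Vehicle 3 and 4 were not well above background, so their values are bounds, while the other 6 arrays were. With 2 of 4 vehicle and 4 of 4 E7386 arrays above it, the gene was tested through the E7386 group alone. The fitted log2 change was 4.17 (SE 1.86), and 2.50 with normexp background correction, so its size depended on those low values. Vehicle 2 lay level with E7386 2.

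Krtap19-3 read 4.10, 7.11, 1.03 and 0.61 with vehicle and 4.81, 6.51, 5.86 and 7.92 with E7386. The span of 7.31 between vehicle 4 and E7386 4 is a 158-fold difference in signal, and the log2 change was 3.06 (SE 1.42). Krtap19-5 read 3.11, 5.87, 1.65 and 1.43 with vehicle and 3.64, 5.99, 5.05 and 6.98 with E7386, a log2 change of 2.40 (SE 1.07). In both, vehicle 1 was below every E7386 array and vehicle 2 was not.

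Krtap19-4 read 4.61, 6.58, 3.69 and 4.11 with vehicle and 4.95, 6.76, 5.76 and 7.77 with E7386, a log2 change of 1.57 (SE 0.76). Krtap19-2, the brightest of the subfamily, read 8.59, 9.68, 6.69 and 7.34 with vehicle and 8.72, 8.92, 9.04 and 9.98 with E7386, a log2 change of 1.09 (SE 0.62). The remaining member Krtap19-9b had a log2 change of 2.20 (SE 1.12) and spanned 5.64. The order of the arrays was shared within the subfamily, with E7386 4 highest in all 6 genes and vehicle 3 and 4 lowest.

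The other high glycine-tyrosine subfamilies have 1 or 2 measured genes each and were bright. Krtap16-3 read 8.03, 9.57, 6.13 and 6.78 with vehicle and 8.32, 9.26, 8.80 and 10.03 with E7386, a log2 change of 1.47 (SE 0.73, limma adjusted p = 0.387). Krtap16-1 stayed between 7.22 and 8.10 on all 8 arrays, a log2 change of -0.09 (SE 0.22). Its span of 0.88 was the smallest of the 16 genes, and next to it in gene order Krtap17-1 spanned 0.79.

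Krtap21-1 read 8.11, 8.86, 6.36 and 6.88 with vehicle and 8.30, 8.51, 8.03 and 9.24 with E7386, a log2 change of 0.97 (SE 0.54). Krtap7-1 read 7.22, 7.82, 5.41 and 5.80 with vehicle and 6.86, 6.80, 6.61 and 7.73 with E7386, a log2 change of 0.44 (SE 0.54). Krtap8-1 read 9.18, 9.62, 7.92 and 8.26 with vehicle and 9.19, 9.02, 9.00 and 9.79 with E7386, a log2 change of 0.51 (SE 0.38). For these 3 genes vehicle 1 was above at least 1 E7386 array, as in 33 of 34 cysteine-rich genes.

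Krtap22-2 read 9.36, 9.81, 7.92 and 8.52 with vehicle and 9.38, 9.28, 9.32 and 9.95 with E7386, a log2 change of 0.58 (SE 0.39). Krtap20-2, whose probe had the highest mean signal of the tested Krtap genes, read 9.36, 10.05, 8.93 and 9.15 with vehicle and 9.76, 9.75, 9.82 and 10.36 with E7386, a log2 change of 0.55 (SE 0.25, limma adjusted p = 0.352). Its 3 bright probes spanned 1.44 to 1.88, while a dim probe under the same symbol read -3.66, -0.80, -5.12 and -4.29 with vehicle and -2.68, 1.26, -0.47 and 0.46 with E7386. The dim probe spanned 6.38 with a log2 change of 3.11, so the size of the Krtap20-2 difference depended on the probe.

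**Figure D3:**
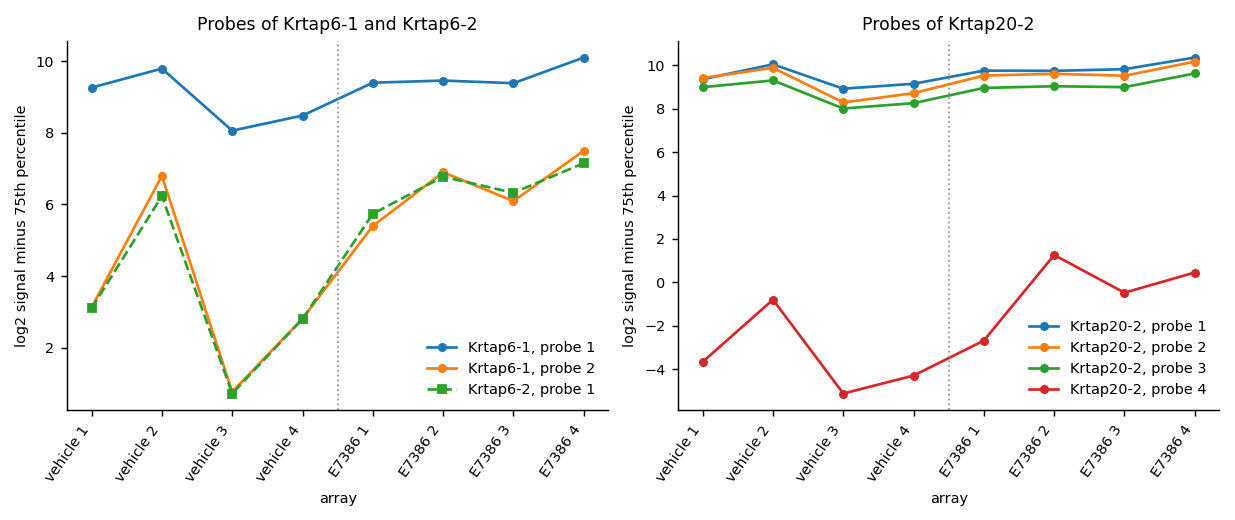
Normalised log2 signal (y axis) on the 8 arrays (x axis) for the probes of Krtap6-1 and Krtap6-2 (left) and of Krtap20-2 (right), with 1 line per probe. The dimmer Krtap6-1 probe runs with the Krtap6-2 probe, and the dim Krtap20-2 probe spans 6.38 where the bright ones span 1.44 to 1.88.

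Cysteine-rich genes were more alike. Krtap1-5 had the largest log2 change among them, at 7.16, 8.06, 5.08 and 5.77 with vehicle and 7.29, 7.82, 7.50 and 8.57 with E7386, a difference of 1.28 (SE 0.63, limma adjusted p = 0.387). Krtap2-4 read 5.46, 6.11, 3.62 and 3.02 with vehicle and 5.46, 5.25, 5.18 and 6.29 with E7386, a log2 change of 1.00 (SE 0.67). In Krtap2-4 vehicle 1 and 2 matched or exceeded E7386 1, 2 and 3, and without vehicle 3 and 4 its log2 change was -0.24.

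Krtap3 and Krtap9, high-sulphur and ultrahigh-sulphur subfamilies of the same run, gave mean log2 changes of 0.58 and 0.49 over 3 genes each. Krtap3-1 read 8.63, 9.09, 7.17 and 7.31 with vehicle and 8.55, 8.32, 8.36 and 9.18 with E7386. Krtap9-3 read 8.51, 8.79, 7.06 and 7.25 with vehicle and 8.43, 8.26, 8.29 and 9.00 with E7386. Their log2 changes were 0.55 (SE 0.45) and 0.59 (SE 0.41), and the E7386 values lay within the vehicle range apart from E7386 4.

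Krtap4, with 7 measured genes, had changes from 0.37 to 0.66 and spans from 1.44 to 2.51. Its brightest gene Krtap4-8 read 8.58, 8.83, 7.75 and 7.37 with vehicle and 8.56, 8.38, 8.32 and 8.87 with E7386, a log2 change of 0.40 (SE 0.32). Krtap5, an ultrahigh-sulphur subfamily of the shaft cuticle, had 5 measured genes with changes from 0.11 to 0.25 and spans from 0.76 to 1.38. Krtap5-5 read 9.11, 9.21, 8.31 and 8.07 with vehicle and 8.95, 8.78, 8.68 and 9.27 with E7386, a log2 change of 0.25 (SE 0.28). Of the subfamilies with at least 3 measured genes, Krtap5 had the narrowest spans.

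Krtap10, Krtap12 and Krtap17 had mean log2 changes near 0, at 0.01, -0.10 and -0.03. Krtap10-10 read 6.43, 6.20, 5.36 and 5.52 with vehicle and 5.96, 5.75, 5.71 and 5.93 with E7386, a log2 change of -0.04 (SE 0.24) whose sign depended on the array left out. Krtap31-2 was dim, at -3.40, -3.45, -4.56 and -5.88 with vehicle and -5.20, -2.53, -3.95 and -2.79 with E7386, and was well above background on 3 of 4 arrays of each group. Krtap13 had values from -7.69 to -7.35 with vehicle and from -7.17 to -5.13 with E7386, all not well above background. These ranges do not overlap, but no fold is given between values at background.

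**Figure D4:**
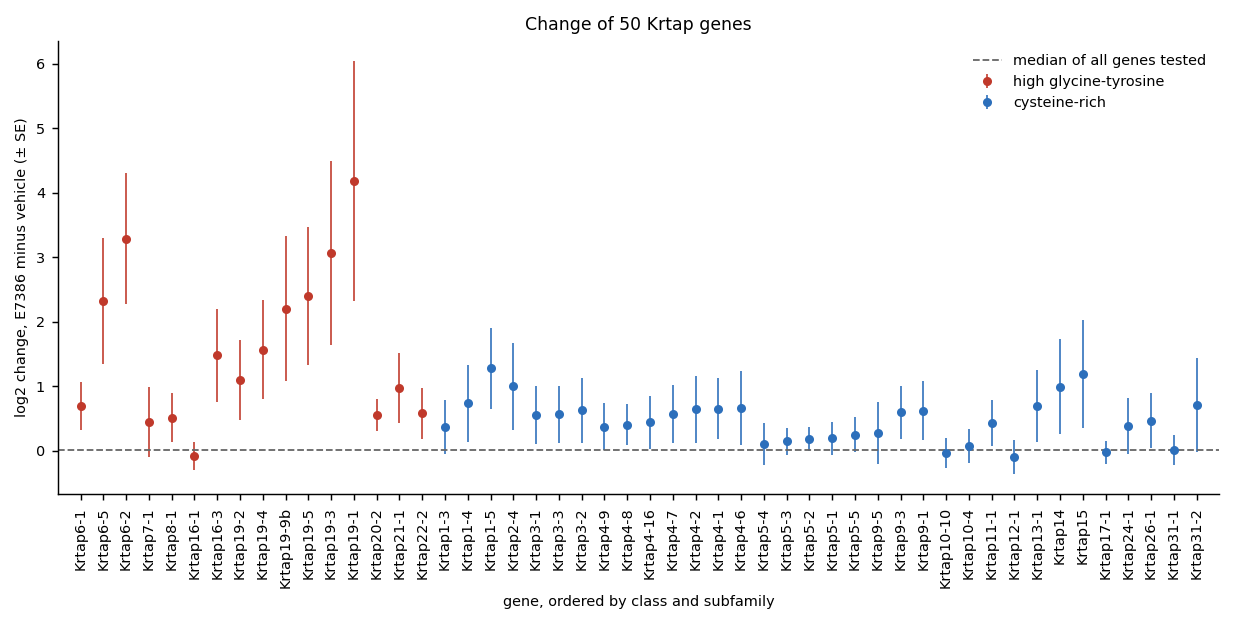
Log2 change, E7386 minus vehicle, with its limma standard error (y axis) for the 50 tested Krtap genes ordered by class and subfamily (x axis), with the median of all genes tested as a dashed line. Krtap6-2, Krtap6-5 and the Krtap19 genes other than Krtap19-2 lie above 1.5 with wide errors, and Krtap5, Krtap10, Krtap12, Krtap16-1 and Krtap17 lie near 0.

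Cysteine-rich genes were also read by position. The 6 tested cysteine-rich genes inside the high glycine-tyrosine run (Krtap24-1, Krtap26-1, Krtap13-1, Krtap14, Krtap15 and Krtap11-1) had a median log2 change of 0.58, against 0.42 for the 28 outside it and 1.28 for the high glycine-tyrosine genes. Krtap14 and Krtap15, which precede Krtap19-1 in gene order, spanned 3.62 and 4.09. Krtap24-1 and Krtap26-1 at the start of the run spanned 1.77 and 1.94, and Krtap11-1 at its end 1.77. The 28 cysteine-rich genes outside the run spanned 0.76 to 3.49, with a median of 1.86 against 2.33 for the 6 inside. Among the high glycine-tyrosine genes of the run, spans went from 1.44 for Krtap20-2 to 7.31 for Krtap19-3, leaving out Krtap19-1, whose low arrays were not well above background.

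Among high glycine-tyrosine genes, those with dimmer probes had the wider spans. Of those with a mean from 0 to 5.5, the 4 genes Krtap6-2, Krtap6-5, Krtap19-3 and Krtap19-5 spanned a median of 6.13, against 1.94 for 7 cysteine-rich genes of that band. With a mean over 7.5 the medians were 2.04 for 8 and 1.77 for 11 genes. A span above 3 was seen in 9 of 16 high glycine-tyrosine and 5 of 34 cysteine-rich genes, beside 1.47% of all genes. Levels of different probes are not comparable as amounts of transcript, and whether bright probes compress differences was not tested.

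**Figure D5:**
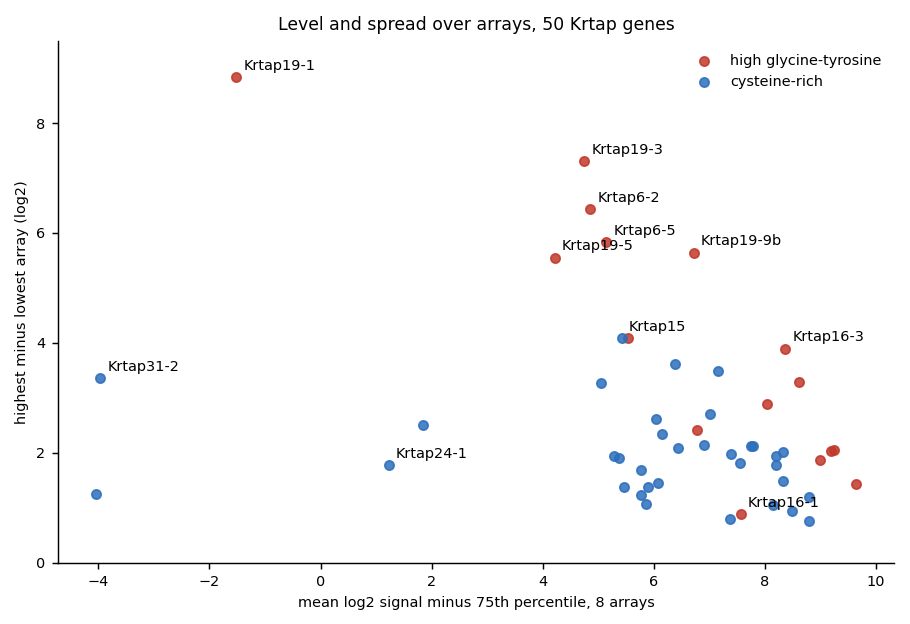
Highest minus lowest array (y axis, log2) against the mean normalised log2 signal over 8 arrays (x axis) for the 50 tested Krtap genes, 1 point per gene coloured by class. The 4 high glycine-tyrosine genes with means from 0 to 5.5 span 5.55 to 7.31 and cysteine-rich genes stay at or under 4.09. The point for Krtap19-1, at 8.84, uses low arrays that were not well above background.

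Other genes of the shaft and its surroundings give the setting. None of the 46 measured genes in 5 lists of hair keratins, inner root sheath, shaft enzymes and shaft transcription factors passed the threshold, against 1.12% of all genes. An unadjusted limma p under 0.05 was seen in 2 of the 46, against 15.2% of all genes. Median log2 changes were 0.44 for 9 type I hair keratins, 0.48 for 5 type II hair keratins, -0.03 for 9 inner root sheath genes, -0.01 for 11 shaft enzymes and adhesion proteins and 0.03 for 12 transcription factors. Vehicle 3 and 4 had the lowest means of shaft enzymes and adhesion proteins (3.14 and 3.26, others 3.42 to 3.91). The same held for transcription factors (2.42 and 2.38, others 2.50 to 2.83). For the inner root sheath E7386 3 was lowest at 5.13, then vehicle 3 and 4 at 5.20 and 5.31. The genes with the smallest p of the first list were Krt36 (0.72, SE 0.36), Krt34 (0.58, SE 0.41) and Krt33b (0.44, SE 0.32). Of the inner root sheath, the layer that encases the growing shaft, Krt28 was at -0.24 (SE 0.17) and Krt71 at 0.05 (SE 0.10).

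Krt84, a type II hair keratin, had the largest change of these lists. It read 2.57, 2.59, 0.33 and 0.87 with vehicle and 2.10, 5.49, 6.12 and 5.99 with E7386. E7386 2, 3 and 4 were above all vehicle arrays and E7386 1 was not. The log2 change was 3.34 (SE 0.96, limma adjusted p = 0.162), and without E7386 1 it was 4.28 with an adjusted p of 0.0321. The transcription factors that act in shaft precursors did not pass, with Foxq1 at 0.39 (SE 0.16, limma adjusted p = 0.295), Hoxc13 at 0.01 (SE 0.17) and Lef1 at 0.01 (SE 0.22).

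Markers of other cells in the dissection also varied between arrays. The mean of 13 skeletal muscle genes ranged from 1.72 to 4.77 with vehicle and 1.99 to 4.87 with E7386, with vehicle 1, E7386 1 and E7386 2 lowest. The mean of 7 melanocyte genes ranged from 0.94 to 1.95 with vehicle, lowest on vehicle 3 and 4, and from 1.20 to 1.79 with E7386. The mean of 8 proliferation genes ranged from 0.40 to 1.03 and 0.42 to 1.09. Among 8 sebaceous genes 1 rose, beside 1.12% of all genes, Dgat2l6 at 0.77 (SE 0.12, limma adjusted p = 0.0339). An unadjusted limma p under 0.05, found in 15.2% of all genes, was seen in 3 of 8 sebaceous, 2 of 8 adipocyte, 2 of 7 dermal papilla and 1 of 8 basal and outer root sheath genes. It was seen in 0 of 13 muscle, 0 of 7 melanocyte, 0 of 8 proliferation and 0 of 6 suprabasal genes. Median log2 changes were -0.01 for 8 basal and outer root sheath keratins, 0.08 for 6 suprabasal epidermis genes, 0.32 for 8 adipocyte genes and -0.16 for 7 dermal papilla genes. The part of these tissues in the Krtap differences was not tested.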

How the data were processed

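Total RNA of 50 ng per sample was labelled with Cy3 and hybridised to 1-colour Agilent arrays, per the labels. The deposited scanner files hold processed signals as intensity, made with Agilent Feature Extraction 11.5.1.1 per the file headers (version 11 per the submitters' processing notes), with background already corrected. The authors' deposited value table holds log2 values and served as an alternative. Control spots and non-uniform spots were left out, spots of a probe were averaged, and log2 signals were set against each array's 75th percentile. Symbols came from RefSeq GRCm38.p6 by accession (27509 of 29150 probes with a RefSeq accession were named), while the array's design is older. Genes well above background on at least 3 of 4 arrays of a group were tested with limma 3.58.1 in R 4.3.3, adjusted by Benjamini-Hochberg over all genes, after a check on simulated data. Precision is limited by having 4 arrays per group.

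The members and lists were chosen with earlier results of these data known, so class and list values are described without tests. Values on every array are given for the 8 Krtap genes with the smallest p, the brightest gene of each high glycine-tyrosine subfamily and of the 8 cysteine-rich subfamilies with most genes, and those not above background. Of each list, members past the threshold and up to 3 with the smallest p (of the first 5 lists) could be named; Hoxc13 and Lef1 were added after their values were seen. Promoters were to include cysteine-rich genes by cysteine content; without protein sequences the brightest inside and outside the run were shown. Same-numbered arrays of both groups had correlations of 0.49, -0.17, 0.29 and 0.18, and differently numbered ones from -0.49 to 0.38. The 0.49 was the highest of all, so these values do not settle whether same-numbered arrays belong together. Numbers were not used as pairs in the main fit, and an alternative took them as a block. Alternatives were other scalings, backgrounds, filters, probe rules and fits, and each array left out.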

Additional observations from a re-analysis of the deposited data

Results flagged for a closer look

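In 4 of 52 groups of 4 arrays looked at, the highest array stood apart from the other 3 by more than Dixon's 95% limit for 4 samples, and chance gives about 1 in 20 groups. All 4 concern E7386 4. Krtap20-2 was at 10.36 there, with the next E7386 array at 9.82. Krtap6-1 was at 10.11, with the next at 9.46, and Krtap22-2 at 9.95, with the next at 9.38. Krtap13 was at -5.13, with the next at -7.06, and none of these values was well above background. These genes were read from the same arrays, so their flags are not independent of one another.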

How the results depend on the processing

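With each array left out in turn, the median log2 change ranged from 0.80 to 1.87 for high glycine-tyrosine genes and from 0.22 to 0.72 for cysteine-rich genes, the difference of class means from 0.89 to 1.48, the Krtap genes called from 0 to 1 (Krtap6-2 without vehicle 2) and the genes called in the first 5 lists from 0 to 1 (Krt84 without E7386 1). Krtap10-10 ranged from -0.21 to 0.14 and was above 0 without vehicle 1 (0.14), vehicle 2 (0.069) or E7386 3 (0.0013). Without vehicle 3 and 4, an alternative added after seeing the data, the cysteine-rich median was -0.28. The cause of these shifts was not tested beyond the arrays named. Of 438 values of named genes over 20 alternatives, 434 kept direction and side of the threshold. These 20 leave out the alternatives added after seeing the data. Without vehicle 3 and 4, 33 of 34 cysteine-rich and 4 of 16 high glycine-tyrosine genes were lower with E7386, so many directions rested on those arrays. With the dimmest detected probe of each gene the medians were 1.94 and 0.51, with Krtap6-1 at 3.10 against 0.69 and Krtap20-2 at 3.11 against 0.55, and with the mean of a gene's probes the medians were 1.52 and 0.48. Normexp gave 2.50 against 4.17 for Krtap19-1 and 0.37 against 0.71 for Krtap31-2, and without Krtap19-1, added likewise, the high glycine-tyrosine median was 1.09 and the difference of class means 0.93. Quantile normalization gave 0.32 for Krtap20-2 and 0.09 against 0.25 for Krtap5-5. With Krtap16-1 counted as cysteine-rich, added likewise, the medians were 1.47 and 0.44. With the replicate number as a block, 0 Krtap genes were called, and 59 of all genes (50 higher and 9 lower) against 284. Over all genes, median scaling called 135 higher and 123 lower against 191 and 93, no detection filter called 153, and leaving out 1 array called 88 to 240. A class by cysteine content and a grouping of near-identical proteins were not run, since no protein sequences were used here, and normexp ran on median signals.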
